A study of Bos taurus with 32 samples.

Results

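The 10 genes described here are the cyclin A, B, D and E genes of cattle: CCNA1, CCNA2, CCNB1, CCNB2, CCNB3, CCND1, CCND2, CCND3, CCNE1 and CCNE2. They were taken as the rows of the 4 deposited stage tables whose gene name is one of these symbols. All 10 were listed in every table, out of 19834 genes listed in any table and 14225 listed in all 4. Bovine embryos produced in vitro either developed with the cytokines FGF2, LIF and IGF1 added (FLI) or served as controls. RNA of pools of 15 embryos was sequenced from 4-6 cell embryos, 9-16 cell embryos, morulae and blastocysts, with 4 pools for every stage and treatment, which makes 8 groups and 32 libraries. No oocyte was sequenced, so the series starts at the 4-6 cell embryo. Neither the doses nor the time of addition are stated in the labels, which describe the controls by that word alone. Nothing there ties the pools to separate cultures either, and the p-values therefore rest on a spread between pools that may be technical.

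Cyclins are the regulatory partners of cyclin-dependent kinases (CDKs). D-type cyclins are induced by growth factors and, with CDK4 and CDK6, phosphorylate the retinoblastoma protein to free E2F transcription factors. Cyclin E with CDK2 acts at entry into S phase, cyclin A in S phase and G2, and cyclin B with CDK1 at mitosis. Early cleavage divisions run on mRNAs and proteins stored in the oocyte, and these transcripts are cleared as the embryo activates its own genome, in cattle mainly around the 9-16 cell stage.

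Total reads per library (M, mega) were 12.4 M to 89.2 M at the 4-6 cell stage, 7.01 M to 50.6 M at the 9-16 cell stage, 11.6 M to 114 M in 7 morula libraries and 62.6 M to 169 M in 7 libraries of blastocysts. A further control of each late stage was too shallow to read, replicate 4 of the morula with 83409 reads and replicate 6 of the blastocyst with 2995, and both are left out here, which leaves 30 libraries. The stage labels were checked with marker lists. The summed signal of 11 oocyte markers was 8494 to 11389 at the 4-6 cell stage. It was 4792 to 6293 at the 9-16 cell stage and 31.2 to 109 in morulae. Of 12 blastocyst markers, 9 were listed at the 4-6 cell stage, 10 at the 9-16 cell stage and 11 at each late stage. Their summed signal reached 30614 to 58481 in blastocysts, led by KRT8, against at most 1961 at any earlier stage. GATA2 led at the 4-6 cell and 9-16 cell stages. Cumulus markers summed to at most 438, led by STAR, and blood markers to at most 130, led by PECAM1 in blastocysts. Sperm markers summed to 6.01 to 28.1 in FLI morulae and 24.7 to 111 in control morulae, led by TNP2, and to at most 18.4 at any other stage. In 3 libraries, FLI replicate 6 and control replicate 6 at the 4-6 cell stage and control replicate 11 at the 9-16 cell stage, genes under 1000 bases stood higher relative to genes over 4000 bases than in the other libraries of their stage. Their mean log2 levels of short minus long genes were -0.10, 0.14 and -0.19, against -1.99 to -1.60 and -1.62 to -1.38 in the others, and these were also the deepest libraries of their stage.

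The makeup of the cyclin transcripts moved from cyclin B towards cyclin D over the 4 stages. Levels of different genes are compared here as CPM per kb, that is, counts per library size on a scale normalised jointly over all stages, divided by the gene length in the deposited tables. The 3 cyclin B genes together held a median of 81.4% of the summed cyclin level at the 4-6 cell stage (75.8 to 87.8%, n = 8 libraries), 73.1% at the 9-16 cell stage (70.9 to 80.5%, n = 8), 61.9% in morulae (53.2 to 67.6%, n = 7) and 43.6% in blastocysts (39.6 to 47.5%, n = 7). The libraries of morulae and blastocysts did not overlap with each other or with those of earlier stages. The 3 cyclin D genes held medians of 0.641%, 0.569%, 14.2% and 35.5% at the same stages. The lowest blastocyst share of cyclin D, 29.6%, lay above the highest morula share, 18.4%, which in turn lay far above every earlier library. Cyclin E held 0.599% at the 4-6 cell stage and 6.84%, 5.32% and 6.82% afterwards, while cyclin A stayed between medians of 13.7 and 19.4%. The summed cyclin level itself was a median of 1335, 1332, 863 and 676 CPM per kb at the 4 stages, so the share of cyclin B went down within a smaller total. These are levels relative to all reads of a pool: fewer cells of a type and less RNA per cell cannot be told apart, and neither can stage and collection.

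**Figure D1:**
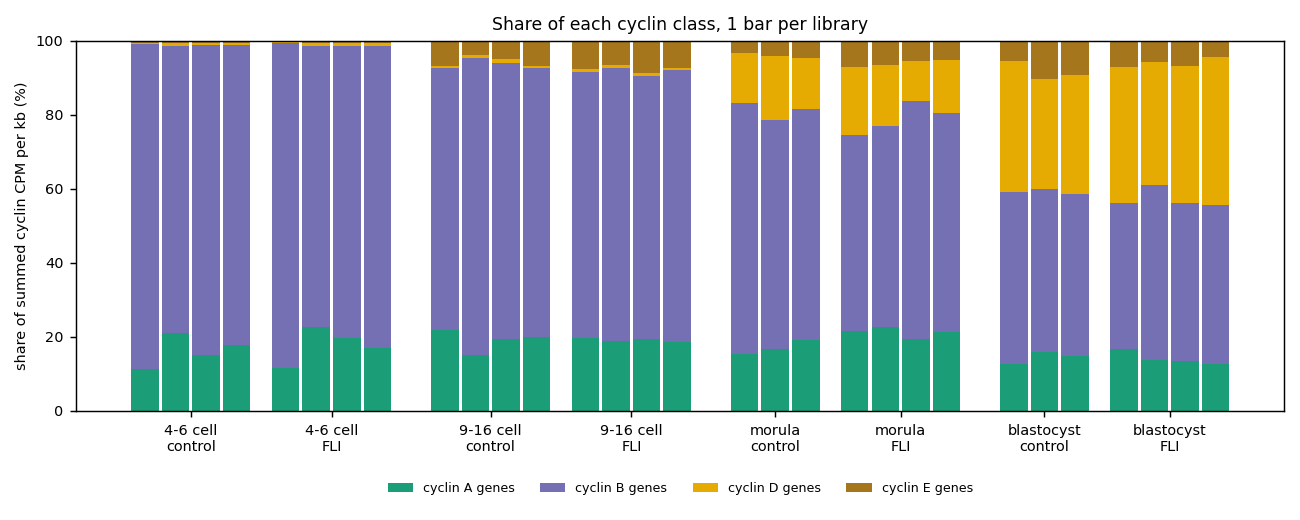
Share of each cyclin class in the summed level of the 10 genes (CPM per kb, vertical axis in %), 1 bar for each of 30 libraries grouped by stage and treatment. The cyclin D share has a median of 14.2% in morulae and 35.5% in blastocysts, against under 1% in every earlier library.

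Changes between neighbouring stages were tested with limma on log2(CPM + 1) in one fit of the 30 libraries and 13388 genes; calls needed a p below 0.05 after Benjamini-Hochberg adjustment. From the 4-6 cell to the 9-16 cell stage, 26.0% of all genes were called in controls (13.7% higher, 12.3% lower) and 31.2% with FLI (15.2% higher, 16.0% lower). Of the 10 cyclins, 3 rose and 0 fell in controls, while 3 rose and 1 fell with FLI. From there to the morula, 73.6% of all genes were called in controls (39.0% higher, 34.6% lower) and 73.3% with FLI (40.6% higher, 32.6% lower). There 3 cyclins rose and 4 fell in controls, while 4 rose and 4 fell with FLI. From morula to blastocyst, 32.8% of all genes were called in controls (17.6% higher, 15.2% lower) and 40.7% with FLI (18.8% higher, 22.0% lower). The FLI split turned with DESeq2 size factors, where 55.5% of the 5374 calls were higher, against 46.1% of 5452. At this step 2 cyclins rose and 2 fell in controls, while 3 rose and 3 fell with FLI. CCND1, which passed the filter only through the blastocysts, is 1 of those that rose at this step in both treatments and at the step to the morula with FLI. With 10 members, these counts are not read as more or fewer than among all genes, and what follows describes which members moved and how far. The median log2 change over all genes was -0.14, 0.13 and -0.02 for the 3 steps in controls and -0.11, 0.23 and -0.08 with FLI. With DESeq2 size factors the FLI medians at the step to the morula and the step to the blastocyst were both 0.05, and no called cyclin turned direction with that scaling.

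**Figure D2:**
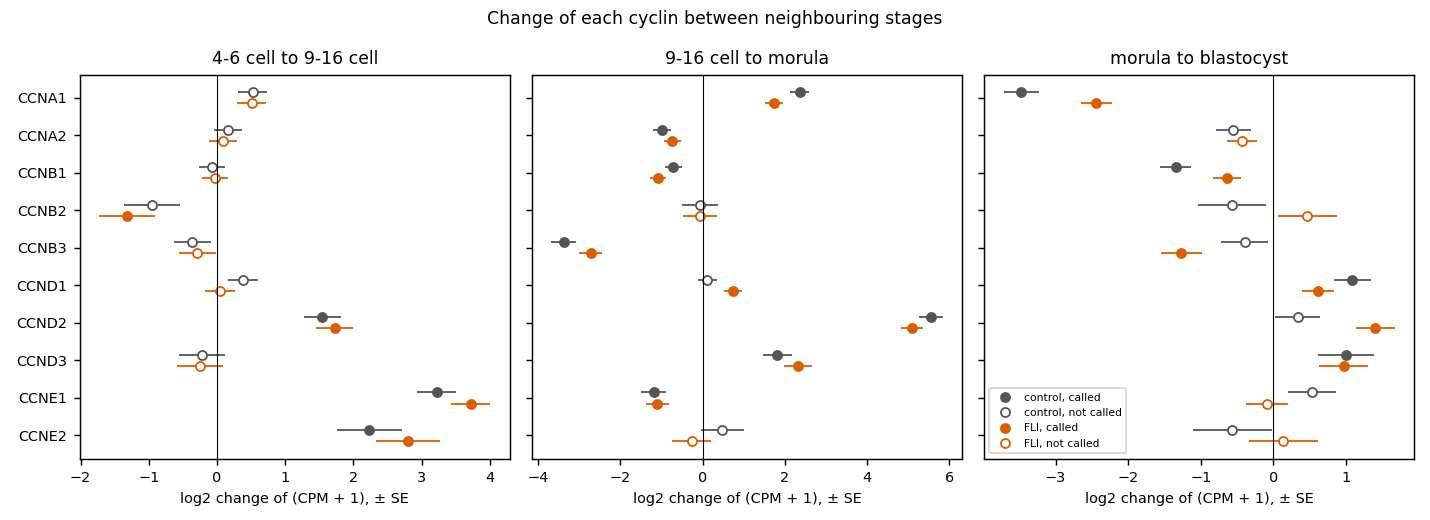
Log2 change of (CPM + 1) with its standard error (horizontal axis) for each cyclin at the 3 steps between stages, in controls and with FLI. Filled points passed the limma test; CCND2 at the step to the morula lies farthest from 0, at 5.54 and 5.10.

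The cyclin B genes were the most abundant class of the early embryo. In the build ARS-UCD1.2, CCNB1 lies at chr20:10507979-10517702, CCNB2 at chr10:51184626-51209368 and CCNB3 at chrX:87970000-88000785. CCNB1, the main CDK1 partner at mitosis, stood at a median of 1285 CPM at the 4-6 cell stage (1161 to 1636) and 1259 at the 9-16 cell stage (1094 to 1587). It then stood at 699 CPM in morulae (533 to 848) and 331 in blastocysts (274 to 535). Every morula and blastocyst library lay below every library of the 4-6 cell and 9-16 cell stages, while morulae and blastocysts overlapped. CCNB1 fell from the 9-16 cell stage to the morula by 0.71 on the log2 scale in controls (SE 0.20, limma adjusted p = 0.00289) and by 1.08 with FLI (SE 0.19, adjusted p = 1.15e-05). To the blastocyst it fell by 1.35 in controls (SE 0.22, adjusted p = 2.28e-05) and by 0.64 with FLI (SE 0.19, adjusted p = 0.00799). The FLI call was lost with DESeq2 size factors (-0.48, adjusted p = 0.0672) and in 5 fits with 1 library left out, with adjusted p-values up to 0.0821 (without FLI replicate 8 at the 4-6 cell stage, control replicates 8 or 9 there, FLI morula replicate 7 or FLI blastocyst replicate 8). The control call at the step to the morula was lost in a fit of those 2 groups alone (-0.79, adjusted p = 0.0643).

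CCNB3, which in mice is needed for the oocyte to complete the first meiotic division, had high early and low late levels. The control libraries held 185, 308, 339 and 355 CPM at the 4-6 cell stage and 238, 256, 170 and 242 at the 9-16 cell stage, and the FLI libraries 210, 251, 345 and 381, then 223, 209, 185 and 361. Controls held 24.9, 15.6 and 22.5 CPM in morulae and 12.7, 16.0 and 17.9 in blastocysts, and FLI embryos 34.7, 41.9, 23.1 and 44.5, then 22.2, 10.3, 12.8 and 12.8. The early and the late stages were separated by a wide gap in both treatments. The change from the 9-16 cell stage to the morula was -3.38 on the log2 scale in controls (SE 0.30, limma adjusted p = 1.24e-10) and -2.72 with FLI (SE 0.28, adjusted p = 1.46e-09). From morula to blastocyst CCNB3 fell by 1.27 with FLI (SE 0.28, adjusted p = 0.000632), while the change in controls, under 0.4 in size, was not called.

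CCNB2, which also partners CDK1, behaved differently from the other members of its class. Its medians were 215, 118, 134 and 121 CPM at the 4 stages, and the ranges of all stages overlapped. At the 4-6 cell stage the control libraries held 675, 180, 256 and 215 CPM and the FLI libraries 742, 177, 184 and 215. Replicate 6 of both treatments was thus about 3 times the level of the other pools, and at the 9-16 cell stage control replicate 11 held 272 CPM against 91.6 to 123 in the other 7. These 3 are the libraries with relatively high levels of short genes named above; the part of that measure in the result was not tested. With FLI, CCNB2 changed by -1.32 on the log2 scale from the 4-6 cell to the 9-16 cell stage (SE 0.41, limma adjusted p = 0.0149), and this call was lost without FLI replicate 6 (-0.83, adjusted p = 0.1003). The control change of -0.95 was not called (adjusted p = 0.0900), but was called without FLI replicate 6 (-0.95, adjusted p = 0.0364), without control replicate 11 of the 9-16 cell stage (-1.25, adjusted p = 0.0300) and with the 3 libraries left out together (-0.89, adjusted p = 0.0217). Leaving these 3 out together was chosen after seeing the data. Neither later step was called.

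The ratio of CCNB1 to CCNB3, per kb, shows the separation inside the class. CCNB1 stood at a median of 10.2 times the level of CCNB3 at the 4-6 cell stage, 14.6 times at the 9-16 cell stage, 72.6 times in morulae and 65.7 times in blastocysts. The ratio of CCNB1 to CCNB2 was 6.27, 11.02, 5.49 and 2.80 at these stages.

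The cyclin A genes changed in opposite directions at the step to the morula. CCNA2 lies at chr6:3425574-3431686 and CCNA1 at chr12:25107258-25118080. CCNA2, the cyclin A of dividing somatic cells, stood at a median of 414 CPM at the 4-6 cell stage (318 to 535), 456 at the 9-16 cell stage (302 to 566), 252 in morulae (202 to 321) and 156 in blastocysts (139 to 248). From the 9-16 cell stage to the morula its change was -0.996 on the log2 scale in controls (SE 0.22, limma adjusted p = 0.000252) and -0.74 with FLI (SE 0.20, adjusted p = 0.00212). The later changes of -0.55 and -0.43 were not called (limma adjusted p = 0.0748 and 0.0946). The control change was called with the 3 early libraries left out, a choice made after seeing the data (-0.59, adjusted p = 0.0166). It was also called without FLI morula replicate 7 or FLI blastocyst replicates 6 or 8 (adjusted p from 0.0389).

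CCNA1, known mainly from the germline and needed for male meiosis in mice, had a transient peak in the morula. Control libraries held 5.31, 7.54, 7.65 and 11.2 CPM at the 4-6 cell stage and 11.5, 8.19, 12.6 and 14.4 at the 9-16 cell stage. They then held 56.3, 70.9 and 61.8 CPM in morulae and 5.91, 3.10 and 5.68 in blastocysts. With FLI the morula libraries held 44.7, 34.1, 43.2 and 44.2 CPM and the blastocyst libraries 5.90, 8.05, 5.46 and 8.14. No morula library overlapped with any library of another stage. The first step, at 0.52 in controls and 0.51 with FLI, was not called (adjusted p = 0.0703 and 0.0690), but the control change was called without control replicate 9 of the 4-6 cell stage (0.66, adjusted p = 0.0335) or control replicate 13 of the 9-16 cell stage (0.67, adjusted p = 0.0288). CCNA1 rose into the morula by 2.35 on the log2 scale in controls (SE 0.23, limma adjusted p = 6.89e-10) and by 1.74 with FLI (SE 0.21, adjusted p = 3.78e-08), and its change to the blastocyst was -3.47 (SE 0.24, adjusted p = 2.49e-11) and -2.44 (SE 0.21, adjusted p = 6.12e-10). At its peak CCNA2 was still 5.14 times as high per kb as CCNA1, against 48.4 times at the 4-6 cell stage and 28.1 times in blastocysts. The morula was also the stage with the highest summed sperm markers, given above; their part in the result was not tested.

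The cyclin E genes rose from the 4-6 cell to the 9-16 cell stage. CCNE1 lies at chr18:40424330-40434833 and CCNE2 at chr14:69448183-69460811, and both encode partners of CDK2. For CCNE1 the control libraries held 8.61, 15.0, 12.8 and 11.8 CPM at the 4-6 cell stage and 101, 164, 68.7 and 173 at the 9-16 cell stage. The FLI libraries held 8.20, 15.6, 12.8 and 14.2 CPM, then 171, 136, 207 and 197. The stages did not overlap, and the rise was 3.22 on the log2 scale in controls (SE 0.29, limma adjusted p = 8.04e-10) and 3.72 with FLI (SE 0.29, adjusted p = 3.71e-11). The change of CCNE1 into the morula was -1.195 in controls (SE 0.31, adjusted p = 0.00119) and -1.10 with FLI (SE 0.29, adjusted p = 0.00123), to a median of 74.4 CPM (42.8 to 92.1), and stood at 84.4 in blastocysts (43.2 to 98.5). No call was made at this last step.

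CCNE2 was near 1 CPM in most pools of the 4-6 cell stage. The control libraries held 15.2, 0.748, 1.76 and 1.56 CPM and the FLI libraries 7.46, 1.35, 0.920 and 1.09, so replicate 6 of each treatment stood apart, as it did for CCNB2. Later stages had medians of 18.8, 18.6 and 17.5 CPM, with 11.7 to 32.1 over all 22 libraries. CCNE2 rose to the 9-16 cell stage by 2.23 on the log2 scale in controls (SE 0.47, limma adjusted p = 0.000702) and by 2.80 with FLI (SE 0.47, adjusted p = 3.64e-05), and both calls held with each single library left out. No later change of CCNE2 was called.

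The cyclin D genes were the late class. CCND1 lies at chr29:46888863-46898541, CCND2 at chr5:105763459-105787132 and CCND3 at chr23:15698661-15705476. CCND2 showed the largest change of any cyclin. Its control libraries held 1.67, 0.249, 0.172 and 0.184 CPM at the 4-6 cell stage and 2.25, 2.18, 5.64 and 3.86 at the 9-16 cell stage, then 146, 218 and 245 in morulae and 340, 203 and 226 in blastocysts. With FLI it held 0.256, 0.269, 0.541 and 0.458 CPM, then 2.79, 4.69, 3.41 and 3.49, then 119, 195, 158 and 155, and in blastocysts 347, 480, 413 and 412. The first 3 stages did not overlap, and the morula median was 45.9 times that of the 9-16 cell stage.

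On the log2 scale CCND2 rose to the 9-16 cell stage by 1.54 in controls (SE 0.27, limma adjusted p = 6.39e-05) and by 1.72 with FLI (SE 0.27, adjusted p = 1.06e-05). Into the morula it rose by 5.54 (SE 0.29, adjusted p = 3.66e-15) and 5.10 (SE 0.27, adjusted p = 2.76e-15). The added 1 CPM understates the earlier rise, since 7 of 8 libraries of the 4-6 cell stage lay below 1. From morula to blastocyst CCND2 rose with FLI by 1.40 (SE 0.27, adjusted p = 0.000146), while the control change, under 0.4 in size, was not called (adjusted p = 0.434).

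CCND3 was present from the 4-6 cell stage, at a median of 15.7 CPM (7.64 to 20.01), and at 11.7 (6.06 to 19.98) at the 9-16 cell stage. It stood at 59.7 CPM in morulae (26.0 to 91.8) and 93.1 in blastocysts (69.4 to 185). The rise into the morula was 1.82 on the log2 scale in controls (SE 0.36, limma adjusted p = 7.15e-05) and 2.32 with FLI (SE 0.34, adjusted p = 7.29e-07). The further rise to the blastocyst was 1.002 in controls (SE 0.39, adjusted p = 0.0480) and 0.96 with FLI (SE 0.34, adjusted p = 0.0231). The control call was lost with DESeq2 size factors (0.95, adjusted p = 0.0582), with edgeR (0.92, adjusted p = 0.0650) and in 17 of 30 fits with 1 library left out (adjusted p from 0.0226 to 0.253), the value being 0.67 without control morula replicate 1. The FLI call was lost without FLI morula replicates 6 or 2 or FLI blastocyst replicates 5 or 7, with adjusted p-values up to 0.0894. Per kb, CCND2 stood at a median of 0.0226 times CCND3 at the 4-6 cell stage, 0.290 times at the 9-16 cell stage, 2.92 times in morulae and 2.83 times in blastocysts.

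CCND1, a D-type cyclin well known from somatic cells, had the lowest median per kb of the members from the 9-16 cell stage on. Its libraries held 2 to 26 reads at the 4-6 cell stage, 4 to 40 at the 9-16 cell stage, 8 to 96 in morulae and 157 to 394 in blastocysts, or medians of 0.293, 0.565, 1.12 and 2.79 CPM. It passed the filter of the joint fit, a mean of 1 CPM, only through the blastocysts (1.16 over all 30 libraries, 0.658 over the 23 earlier ones), so a rise into the blastocyst was built into its selection and its calls are given as values only. Its fitted change to the blastocyst was 1.08 on the log2 scale in controls (SE 0.25, limma adjusted p = 0.00161) and 0.62 with FLI (SE 0.22, adjusted p = 0.0270), and its change into the morula with FLI was 0.74 (SE 0.22, adjusted p = 0.00393). The FLI call at the last step was lost with a pseudocount of 0.25 (adjusted p = 0.0603), with edgeR (adjusted p = 0.0523) and without FLI blastocyst replicate 8 (0.39, adjusted p = 0.140) or FLI morula replicates 4 or 7 (adjusted p = 0.102 and 0.0582). CCND1 overlaps LTO1 on the opposite strand and no source used here gives the strand setting of the counting, so reads of the pair cannot be told apart and its values are uncertain. No other member overlaps an annotated gene in the tables.

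**Figure D3:**
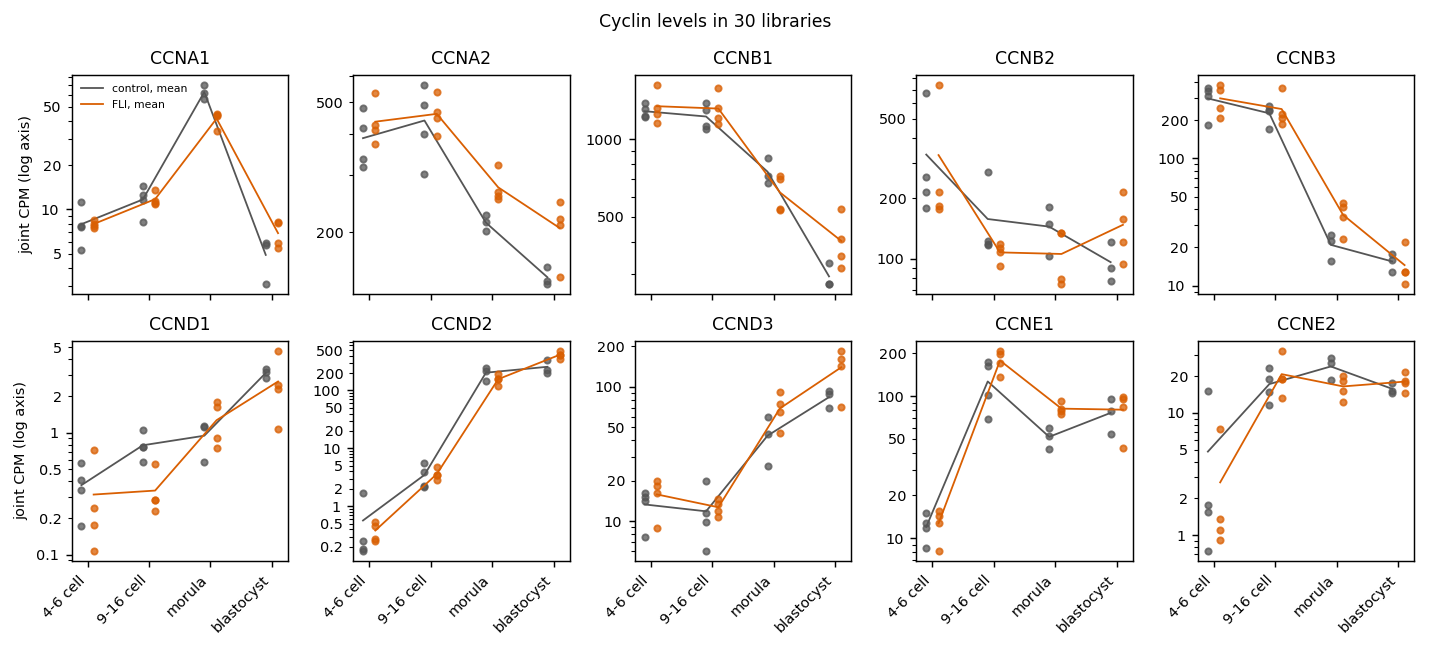
Jointly normalised CPM of each cyclin (logarithmic vertical axis) at the 4 stages, 1 point per library for 30 libraries, with lines through the group means of controls and FLI. CCNB1, CCNA2 and CCNB3 are highest in the first 2 stages, CCNA1 peaks in the morula, CCNE1 and CCNE2 are up from the 9-16 cell stage, and CCND2 and CCND3 are highest in the late stages.

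The order of the members per kb changed with these courses. At the 4-6 cell stage CCNB1 led at a median of 847 CPM per kb, followed by CCNA2 at 229, CCNB2 at 139 and CCNB3 at 79.9. CCNA2 and CCNB2 overlapped, the other neighbours among these 4 did not, and a gap separated CCNB3 from CCND3 at 7.93. CCND3, CCNE1, CCNA1, CCNE2, CCND1 and CCND2 followed, each overlapping the next. At the 9-16 cell stage CCNB1 and CCNA2 again took the first 2 places, and CCNE1, at 91.0, stood beside CCNB2 at 76.1 and CCNB3 at 57.1, with ranges that overlapped in turn. In morulae CCND2 at 89.2 CPM per kb overlapped both CCNA2 at 140 and CCNB2 at 86.5, while CCNB3 stood second to last at 6.15. In blastocysts CCNB1 at 218 and CCND2 at 196 overlapped at the head, followed by CCNA2 at 86.5, CCNB2 at 78.0, CCND3 at 46.9 and CCNE1 at 45.8, each overlapping the next. CCNE2 at 6.65 was separated from both neighbours, and CCNA1, CCNB3 and CCND1 closed the order at 3.58, 3.17 and 1.98.

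FLI against control was tested stage by stage on log2(signal + 1), where signal is the deposited normalised value. No member was called, and limma called 0% of all genes at each stage. Unadjusted p-values under 0.05 numbered 12 of 13385 genes at the 4-6 cell stage, 293 of 14139 at the 9-16 cell stage, 4203 of 13254 in morulae and 2049 of 13029 in blastocysts. At the 4-6 cell and 9-16 cell stages these counts lay below a share of 0.05 of the genes tested. The 0 calls there are therefore not read as absence of a difference. With a replicate block, given below, the count at the 4-6 cell stage was higher. edgeR on the recovered reads called 0, 0, 891 and 0 genes, and DESeq2 0, 0, 2547 and 474. Leaving out control morula replicate 7, limma called 4620 genes, and leaving out FLI blastocyst replicate 8 or control blastocyst replicate 5 it called 386 or 177. In the authors' deposited tables, 0 of 16690, 13 of 17977, 1856 of 17446 (10.6%) and 744 of 16351 genes (4.55%) had a false discovery rate under 0.05 at the 4 stages. No member was among them. The lowest of the members were 0.149 for CCND3 in blastocysts and 0.160 for CCNB3 in morulae. CCND1 and CCND2 at the 4-6 cell stage and CCND1 at the 9-16 cell and morula stages had a mean signal under 1 and were not tested.

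Among the members tested in early embryos, all 8 members tested at the 4-6 cell stage and 7 of 9 at the 9-16 cell stage had log2 differences under 0.4 in size. The others were CCNE1 at 0.53 (SE 0.31, limma adjusted p = 0.910) and CCNB2 at -0.49 (SE 0.30, adjusted p = 0.910) at the 9-16 cell stage. On the signal scale the groups of every member overlapped at both stages, and 0.344% and 1.80% of all genes tested had groups that did not. CCND1, untested at a mean signal under 1, held a signal of 0.271, 0.335, 0.320 and 0.666 with FLI and 0.661, 0.958, 0.945 and 1.28 in controls at the 9-16 cell stage, from 4 to 40 reads per library. The FLI mean was 0.415 times the control mean, and the groups overlapped by 1 library on this scale. On joint CPM the groups did not overlap, but the share of all genes without overlap was not computed on that scale. No difference between treatments is therefore read from it. In the authors' deposited table its log2 fold change, control minus FLI, was 1.198 at a p-value of 0.0348 and a false discovery rate of 0.900. At the 4-6 cell stage, the ratio of FLI to control mean signal was 0.548 for CCNE2, whose control mean includes replicate 6 at 17.0, and 0.696 for the untested CCND2.

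In morulae 3 members had groups that did not overlap, against 21.3% of all genes. CCNA1 signal was 39.9, 26.8, 39.7 and 35.6 with FLI and 51.0, 64.0 and 56.5 in controls. All FLI pools lay below all control pools, at a log2 difference of -0.68 (SE 0.25, limma adjusted p = 0.106); DESeq2 gave -0.73 and an adjusted p of 0.0465, while limma with single libraries left out gave adjusted p-values of 0.0534 to 0.424. CCNE1 signal was 66.4, 72.4, 74.4 and 63.5 with FLI and 54.0, 38.7 and 48.0 in controls, higher in all FLI pools at 0.56 (SE 0.23, adjusted p = 0.139). CCNA2 signal was 225, 210, 295 and 209 with FLI and 205, 182 and 196 in controls, also higher in all FLI pools, with a log2 difference under 0.4.

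CCNB3 signal in morulae was 30.9, 32.9, 21.3 and 35.8 with FLI and 22.5, 14.1 and 20.5 in controls, at 0.64 (SE 0.28, limma adjusted p = 0.152). One FLI pool lay within the control range. CCND3 stood at 0.60 (SE 0.35, adjusted p = 0.2504), CCNE2 at -0.61 (SE 0.29, adjusted p = 0.181), CCNB2 at -0.56 (SE 0.35, adjusted p = 0.282) and CCND2 at -0.45 (SE 0.28, adjusted p = 0.274). Beside these values, the morula groups also differed in measures of the libraries. Short minus long genes stood at -0.72 ± 0.57 with FLI (SD, n = 4) and 0.53 ± 0.81 in controls (SD, n = 3), the share of mitochondrially encoded reads at 2.94 ± 1.10% and 5.40 ± 0.97%, summed oocyte markers at 31.2 to 62.7 against 69.0 to 109, and summed sperm markers as given above. The part of these measures in the cyclin differences was not tested.

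In blastocysts CCND2 alone had groups that did not overlap, against 12.8% of all genes. Its signal was 345, 473, 391 and 412 with FLI and 337, 200 and 216 in controls, with a log2 difference of 0.72 (SE 0.30, limma adjusted p = 0.286, range 0.191 to 0.737 with single libraries left out). The lowest FLI pool and the highest control pool were close. CCND3 signal was 160, 142, 175 and 70.2 with FLI and 68.7, 91.5 and 85.4 in controls, at 0.66 (SE 0.34, adjusted p = 0.367). All FLI pools but 1 stood above all controls, and that one lay among them. CCNB2 stood at 0.58 (SE 0.33, adjusted p = 0.414), CCNA2 at 0.48 (SE 0.28, adjusted p = 0.421), CCNA1 at 0.44 (SE 0.30, adjusted p = 0.489) and CCNB1 at 0.44 (SE 0.29, adjusted p = 0.486). The other 4 members differed by less than 0.4. The blastocyst groups also differed in depth, at 111 M to 169 M reads with FLI and 62.6 M to 107 M in controls, without overlap, and held 2.06 ± 2.36% and 4.26 ± 3.18% mitochondrially encoded reads (SD, n = 4 and 3); the part of these measures was not tested.

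**Figure D4:**
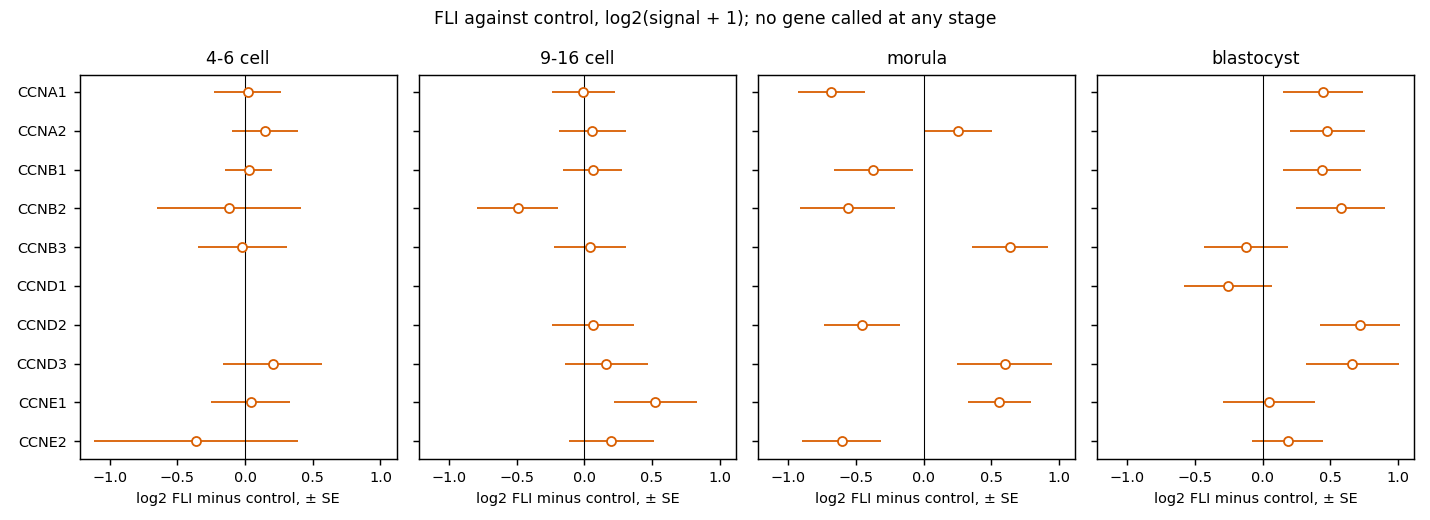
Log2 difference of (signal + 1), FLI minus control, with its standard error (horizontal axis), for each cyclin tested at each stage; a cyclin that was not tested has no point. No member passed the limma test; the largest values are CCND2 in blastocysts at 0.72 and CCNA1 in morulae at -0.68.

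Whether a step between stages differed between treatments was tested as a difference of the FLI and control steps in the joint fit. limma called 0 of 13388 genes for each of the 3 steps, with unadjusted p-values under 0.05 for 86, 881 and 2922 genes, and edgeR also called 0. At the step from morula to blastocyst the largest member differences, FLI minus control, were CCND2 at 1.07 (SE 0.41, limma adjusted p = 0.179), CCNB2 at 1.04 (SE 0.63, adjusted p = 0.297), CCNA1 at 1.03 (SE 0.32, adjusted p = 0.163), CCNB3 at -0.87 (SE 0.42, adjusted p = 0.228) and CCNB1 at 0.71 (SE 0.29, adjusted p = 0.189). Leaving out the 3 early libraries, none of which is a morula or blastocyst library, was chosen after seeing the data. In that fit 2407 genes were called, among them CCNA1 at 1.19 and CCND2 at 1.22 (both limma adjusted p = 0.0344). CCNB1 was called at 0.86 (adjusted p = 0.0398) and CCNB2 at 1.19 (adjusted p = 0.0407). Without FLI morula replicate 7, CCNA1 was called at 1.198 (adjusted p = 0.0403) among 975 genes. Calls made with CCND2 or CCNB3 in 1 treatment only at this step are therefore not shown to differ between treatments in the fit of 30 libraries.

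Lists of CDKs, their regulators and related genes were counted in the same fit, with changes on the log2 scale. At the 3 control steps 26.0%, 73.6% and 32.8% of all genes were called in either direction, and with FLI 31.2%, 73.3% and 40.7%. As for the cyclins, counts in such short lists are not read as more or fewer than among all genes. Of 5 CDKs tested, 3 rose from the 4-6 cell to the 9-16 cell stage in each treatment, but not the same 3. CDK1 rose by 0.88 in controls (SE 0.26, limma adjusted p = 0.0136), while its FLI change of 0.67 was not called (adjusted p = 0.0544). CDK6, the partner of D-type cyclins, rose by 1.91 in controls (SE 0.20, limma adjusted p = 3.06e-08) and 2.07 with FLI (SE 0.20, adjusted p = 5.29e-09). Into the morula 2 rose in both treatments, while 1 fell in controls and 2 with FLI; CDK4, the other D-type partner, rose by 3.53 (SE 0.26, adjusted p = 2.83e-12) and 3.61 (SE 0.24, adjusted p = 2.82e-13). From morula to blastocyst CDK6 changed by -2.09 and -1.67. The median log2 change over the 5 CDKs was 0.69, 0.39 and -0.26 at the 3 control steps, against the all-gene medians of -0.14, 0.13 and -0.02.

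Of 5 CDK inhibitors tested, 3 rose at the first step and 3 fell at the second in both treatments. Of all genes, 13.7% rose at the first step in controls and 15.2% with FLI, and 34.6% and 32.6% fell at the second. CDKN2C, which binds CDK4 and CDK6, rose by 4.07 in controls (SE 0.29, limma adjusted p = 1.25e-11) and then fell by 3.12 (SE 0.32, adjusted p = 1.78e-09). CDKN1C, an imprinted CDK inhibitor, rose by 1.43, fell by 2.04 and rose again by 2.81 at the 3 control steps. Among 6 regulators of CDK phosphorylation, WEE2, the oocyte kinase that holds CDK1 inactive, changed by -1.49, -7.01 and -1.11 at the 3 control steps, while WEE1, its somatic counterpart, rose by 1.89 at the first. CDC25B, a phosphatase that activates CDK1, changed by -3.15 into the morula in controls and by -2.98 with FLI.

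Of 19 genes for the destruction of cyclins, 1 rose and 3 fell at the first control step, 7 rose and 6 fell at the second, and 0 rose and 4 fell at the third. The shares of all genes called at these steps were 26.0%, 73.6% and 32.8%. FBXO43, which inhibits the anaphase-promoting complex in the arrested egg, changed by -5.002 into the morula in controls (SE 0.23, limma adjusted p = 3.60e-16) and by -4.75 with FLI (SE 0.21, adjusted p = 1.28e-16). CDC16, a subunit of that complex, rose by 3.32 into the morula with FLI. It rose in controls as well, since the difference of the FLI and control steps was 0.55 (SE 0.28, limma adjusted p = 0.755). That difference was not called. FBXO5, the somatic inhibitor of the complex, changed by -2.96 into the blastocyst in controls and by -2.19 with FLI. AMBRA1, which targets D-type cyclins for destruction, changed there by -2.12 with FLI (SE 0.39, limma adjusted p = 9.83e-05). For AMBRA1 the control change was also downward, since the difference of the FLI and control steps was -1.19 (SE 0.60, limma adjusted p = 0.237). That difference was not called.

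Of 19 retinoblastoma and E2F genes, 2 rose and 0 fell at the first control step, 6 rose and 9 fell at the second, and 2 rose and 2 fell at the third. Again 26.0%, 73.6% and 32.8% of all genes were called at these steps. E2F1, which activates genes of S phase, changed by -4.07 into the morula (SE 0.68, limma adjusted p = 7.34e-06) and TFDP2, an E2F partner, by 3.999 (SE 0.43, adjusted p = 6.10e-09) in controls. Of 15 other cyclins tested, 6 rose and 1 fell at the first control step, 5 rose and 8 fell at the second and 2 rose and 2 fell at the third. CCNC, the Mediator cyclin, rose at the first step by 2.78 in controls and 2.86 with FLI, and CCNJ changed at the second by -3.64 and -3.23. FLI against control gave 0 calls in any of these lists at any stage, where limma called 0% of all genes.

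For each member the 2 other named genes with the most similar course were found among 12143 genes by Pearson's r of log2(CPM + 1) over the 30 libraries, given as a description, since all points share the stage differences. CCND2 ran closest to PRELID1 and CTSL (r = 0.99 for both) and CCNB3 to MICAL2 and RAI14 (0.99 for both). CCND3 ran with ABHD16A and CTSF (0.98 for both), CCNE1 with BORCS6 and PHF23 (0.98 and 0.97) and CCNE2 with CCNL1 and RBM7 (0.96 and 0.95). CCNB1 ran with DLX6 and SLC25A32 (0.96 for both), CCNA2 with MAD2L1BP and NANOS1 (0.96 and 0.95), CCNB2 with ZNF330 and NSMCE1 (0.95 and 0.94), CCNA1 with TRIM54 and ZFAND5 (0.93 for both) and CCND1 with PLA2G7 and FYB1 (0.91 and 0.89). Within the members, CCNB3 and CCND2 had an r of -0.98, CCNB1 and CCNA2 one of 0.90, and CCNA1 lay between -0.23 and 0.33 with every other member.

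Levels of some members also ran with the short minus long gene measure inside a stage. Over 7 libraries of a stage, 20 relations were computed for morulae and blastocysts, with exact permutation p-values adjusted over all 20. CCNB3 had a Pearson's r of -0.93 in morulae and -0.92 in blastocysts (exact permutation, adjusted p = 0.0119 for both), a Spearman's rho of -0.96 in each (adjusted p = 0.0278), and r of -0.91 and -0.89 without the 2 libraries farthest from the median. In morulae r was 0.91 for CCNB1 (exact permutation, adjusted p = 0.0159; rho 0.93, adjusted p = 0.0450; 0.99 without the 2 farthest), 0.93 for CCNB2 (adjusted p = 0.0159; rho 0.86, adjusted p = 0.0952; 0.93) and 0.96 for CCNE2 (adjusted p = 0.0159; rho 0.86, adjusted p = 0.0952; 0.87). CCNA1 at 0.87 and CCNE1 at -0.88 in morulae (both adjusted p = 0.0420, exact permutation; rho 0.79 and -0.79, both adjusted p = 0.137) stood at 0.56 and -0.50 without the 2 farthest libraries, on which they rest. CCNB3 is the longest member, at 4042 bases, and is itself 1 of the 2552 long genes of the measure in morulae and 2534 in blastocysts; the others are 1405 to 2628 bases long and in neither set. In blastocysts only CCNB3 had an adjusted p below 0.05 (exact permutation). There r was 0.59 for CCNB1, 0.81 for CCNB2, 0.09 for CCNE2, 0.64 for CCNA1 and -0.43 for CCNE1. The permutations exchange libraries across treatments, whose measure differs in morulae as given above. Each treatment within a stage holds 3 or 4 libraries, too few for a relation of its own.

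**Figure D5:**
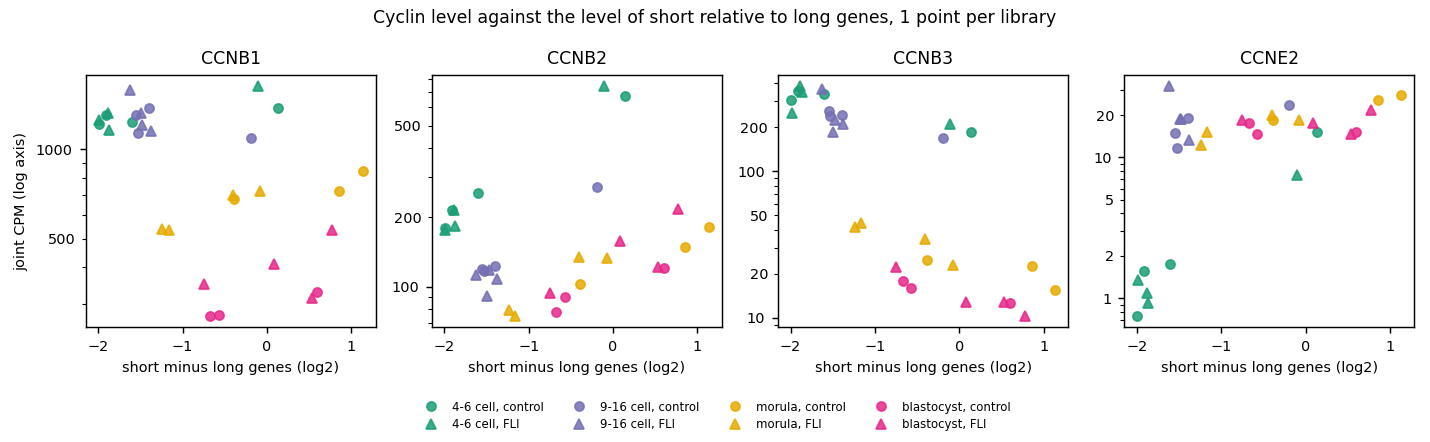
Jointly normalised CPM (logarithmic vertical axis) of CCNB1, CCNB2, CCNB3 and CCNE2 against the mean log2 level of genes under 1000 bases minus that of genes over 4000 bases (horizontal axis), 1 point per library, coloured by stage with circles for controls and triangles for FLI. The 3 early libraries between -0.19 and 0.14 stand to the right of their stage and have the highest CCNB2 of it, while CCNB3 slopes down within morulae and blastocysts.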

How the data were processed

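Pools of 15 bovine embryos were profiled by RNA sequencing at 4 stages with and without FLI. Per the labels' protocols, a PicoPure kit for isolation and a SMART-Seq v4 low-input kit for amplification were used. Per the submitters' processing notes, FastQC, HISAT2, featureCounts, edgeR and the build ARS-UCD1.2 were used, without versions; no source used here gives strand setting or gene filter. The authors deposited 1 table per stage with a normalised signal per gene and library. Dividing each column by its smallest positive value gave whole reads for 100% of its entries (tolerance 0.001). Further columns, per the file headers, are the authors' log2 fold changes, a likelihood ratio as a score, p-values with false discovery rates, and gene lengths.

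FLI was compared with control per stage by limma (trend, robust) on log2(signal + 1) for genes with a mean of at least 1. Steps between stages used CPM from the recovered reads of genes listed in all 4 tables, joint TMM factors, log2(CPM + 1), a mean CPM of at least 1 and 8 group means, with stages and treatments sharing 1 estimate of the spread. Tests were two-sided with Benjamini-Hochberg adjustment over all genes tested at 0.05. R 4.3.3, limma 3.58.1, edgeR 4.0.16, DESeq2 1.42.0 and Python 3.11.15 were used, and the fits were tested on simulated data. edgeR and DESeq2 on the recovered reads were alternatives to the stage fit (edgeR called 0, 0, 891 and 0 genes). Other alternatives were a pseudocount of 0.25, no filter, DESeq2 size factors, the shallow libraries kept, a fit of 2 groups, a replicate block and each library left out; leaving 3 early libraries out together was chosen after seeing the data. Between any 2 libraries compared, at most 4.08% of genes had equal reads.

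The members and gene lists were chosen with earlier results of these data known. All members are described; of each pathway list up to 2 called genes with the largest change per step could be named, and log2 differences under 0.4 that were not called are not printed. Some replicate numbers in the labels are shared by FLI and control. At the 4-6 cell stage same-numbered libraries deviated from their group means together (correlations 0.92, 0.81, 0.47 and 0.69 for replicates 6, 7, 8 and 9). Replicates 6, 7 and 9 matched their own number best, and replicate 8 did not. Replicate 6 stood apart in both treatments, which shifts the deviations of the other libraries alike. The size of these correlations therefore does not settle whether the numbers pair, and the best matches were not tested. There the limma fit with a replicate block called 0 genes, with 549 at an unadjusted p under 0.05. The gene lists hold CDKs, CDK inhibitors, regulators of CDK phosphorylation, cyclin destruction, retinoblastoma and E2F genes, other cyclins, and markers of oocyte, blastocyst, cumulus, blood and sperm.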

Additional observations from a re-analysis of the deposited data

Results flagged for a closer look

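In 60 groups of 4 libraries (a gene, stage and treatment), 9 held a library that stood apart by Dixon's criterion, where chance gives about 1 in 20 groups. CCNB2 stood apart in FLI replicate 6 of the 4-6 cell stage, at 742 CPM against 215 in the next library, in control replicate 6, at 675 against 256, and in control replicate 11 of the 9-16 cell stage, at 272 against 123. CCNE2 stood apart in the same 2 libraries of the 4-6 cell stage, at 7.46 CPM against 1.35 with FLI and 15.2 against 1.76 in controls, and CCND2 in control replicate 6, at 1.67 against 0.249. These 6 values come from the 3 libraries with the highest level of short relative to long genes in their stage; the part of that measure was not tested. CCNA1 was highest in FLI replicate 12 of the 9-16 cell stage, at 13.6 CPM against 11.3 in the next. CCNA1 was lowest in FLI replicate 2 of the morula, at 34.1 CPM against 43.2. CCND1 was highest in FLI replicate 13 of the 9-16 cell stage, at 0.554 CPM against 0.282.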

How the results depend on the processing

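Genes called for FLI against control in morulae went from 0 to 891 with edgeR (32 higher), 2547 with DESeq2 (492 higher), 105 in the joint fit (57 higher), and 0 to 4620 (1847 higher) with single libraries left out; in blastocysts from 0 to 474 with DESeq2, 1 in the joint fit, 3 with the shallow control kept, and 0 to 386. Differences of steps went from 0 to 1 without a filter and with 3 early libraries left out (9-16 cell to morula) and to 2407 (morula to blastocyst); single libraries left out gave 0 to 16 and 0 to 975. With the shallow controls kept, control steps called 693, 5956 and 1560 genes (3480, 9856 and 4394 without) and FLI steps 904, 5727 and 963 (4183, 9807 and 5452). A fit of 2 groups called 2145 genes at the first control step (1441 higher, against 1829 of 3480). Values that reversed were, with shallow controls kept, CCNE2 FLI against control in morulae (0.52), CCNE2 and CCNE1 at the control steps to the morula and to the blastocyst (-0.93 and -0.83), and the step differences of CCNE2 (0.33), CCNB3 (0.23) and CCNE1 (0.96). Leaving out 1 library reversed the step difference of CCNE2 (4-6 to 9-16 cell, -0.14 to 1.07) and CCND3 (9-16 cell to morula, -0.027 to 0.77); none of these was called, and the cause was not tested. Over members, 1807 of 1847 values with a library left out and 397 of 435 with another setting kept direction and side of the threshold. The replicate block kept 0 calls for FLI against control at the 4-6 cell, 9-16 cell and blastocyst stages; for the FLI step from morula to blastocyst, which shares 2 numbers, it called 4396 genes and lost CCNB1 (-0.56, adjusted p = 0.344) and CCND1 (0.58, adjusted p = 0.221). The numbers were not shown to pair at the 9-16 cell and blastocyst stages (correlations 0.06 to 0.29 and -0.74 to 0.35). At the 4-6 cell stage pairing was not settled, as given above. No paired analysis was possible in morulae because the groups share 1 number. Depth limits CCND1, with 2 to 40 reads in early libraries.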
